A study of Mus musculus with 11 samples.

Results

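The Nduf genes, which encode most of the nuclear subunits and a set of assembly factors of mitochondrial complex I, were followed in epithelium of the gingiva. Members were the genes with values whose name begins with Nduf, without the 3 names marked as pseudogenes. This gave 47 genes of 19170 with values, made up of 39 with the name of a subunit and 8 Ndufaf assembly factors. A further 4 Nduf names (Ndufa11b, Ndufb11b, Ndufb4c and Ndufs6b) have no value and stayed out of the test. The mean of each of the 47 members was above 10 normalized counts, from 43.4 for Ndufaf6 to 3717 for Ndufa4l2, so none was left out for low values. The pseudogenes (Ndufa12-ps, Ndufab1-ps and Ndufs5-ps) and the 4 names without a value are, by their names, copies of members, and how reads shared between copies were counted is not given in the sources used here.

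Every mouse carried langerin-DTR, that is, the diphtheria toxin receptor placed under the control of langerin, so that diphtheria toxin (DT) kills langerin-expressing cells such as Langerhans cells (LCs). PBS was injected into 5 mice and DT into 6 mice at 17, 24 and 31 days of age, and the gingival epithelium was taken when they were 8 weeks old. There was no group without the transgene, so an effect of DT on other cells cannot be told apart from an effect of LC loss. The comparison of DT with PBS asks whether epithelium that went without LCs around weaning expressed these genes at another level in adulthood. The labels do not say whether each sample came from a single animal, and each is called a mouse here. The p-values set the difference between DT and PBS against the spread between these samples within the groups.

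Complex I is the entry point of the respiratory chain. It oxidizes NADH, passes the electrons to ubiquinone and pumps protons across the inner mitochondrial membrane. Its N module binds NADH, its Q module reduces ubiquinone, and its membrane arm, with a proximal and a distal part, holds the proton channels. Mitochondrial DNA encodes the channel-forming core of the membrane arm, and the nucleus encodes the rest, which has to be imported and joined with the help of assembly factors. In a stratified epithelium such as the gingiva, the genes of complex I serve general energy supply. Their levels in single layers or cell types were not measured here.

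The promoters of the members were read first, since genes that are to be built into a single complex could share sequence. Of the 47 members, 41 were found by symbol among the RefSeq promoters on GRCm38.p6 (250 bases before to 50 after the start of transcription), with 43 promoters in all. The YY1 word AAGATGGC, searched with its reverse complement GCCATCTT, was in 7 of 36 subunit promoters (19.4%) and in 1 of 7 assembly factor promoters (14.3%), against 2.75% of all 32851 promoters. In all 7 subunits the ATG inside the word was the annotated start codon, which was not so in Ndufaf8. The windows of 30 bases are shown because they place this word at the start of translation, with the word in capitals.
Ndufa3 (chr7:3617377-3617406, plus strand): cttgtcgccgccaagaacAAGATGGCcggg
Ndufa9 (chr6:126849104-126849133, minus strand): cgtgaggcattgtgggagAAGATGGCggcc
Ndufb8 (chr19:44555393-44555422, minus strand): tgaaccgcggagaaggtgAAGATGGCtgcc
Ndufc1 (chr3:51408922-51408951, minus strand): aggcggagcctgcggaacAAGATGGCgccg
Ndufs4 (chr13:114388048-114388077, minus strand): ctggcgtttgcctacaggAAGATGGCggcg
Ndufs6 (chr13:73328438-73328467, minus strand): gggtcaagggtcaccggcAAGATGGCggcg
Ndufs7 (chr10:80249455-80249484, plus strand): tgtctgaaggccgaggccAAGATGGCggcg
Ndufaf8 (chr11:120098926-120098955, plus strand): ccggaagaggcagggcccAAGATGGCggcg
The 7 subunits with the word belong to all 4 parts of the complex, namely Ndufs4 and Ndufs6 to the N module, Ndufa9 and Ndufs7 to the Q module, Ndufa3 and Ndufc1 to the proximal arm and Ndufb8 to the distal arm.

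Other words linked to nuclear genes of the respiratory chain were searched in the same windows. The ETS word CCGGAAGT (reverse ACTTCCGG), bound by GABPA, was in 1 of 36 subunit promoters (2.78%), that of Ndufs3, and in 0 of 7 assembly factor promoters, against 3.89% of all. The palindrome of NRF1, GCGCA followed by its reverse complement TGCGC, was in 1 of 36 subunit promoters (Ndufa11) and in 2 of 7 of assembly factors (28.6%, Ndufaf4 and Ndufaf5), against 0.971% of all. The word TCAAGGTCA (reverse TGACCTTGA) of estrogen-related receptors was in 0 of 36 and 0 of 7, against 0.423% of all. The CCAAT box (reverse ATTGG) was in 10 of 36 subunit promoters (27.8%) and 4 of 7 of assembly factors (57.1%), against 37.4% of all. No matches of different words overlapped. These counts describe letters in the windows searched and not binding.

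The epithelial label fitted the markers, and the members were measured at high depth. The 15 oral epithelial markers, with the keratins Krt5 and Krt14 among them, summed to between 3105560 and 3535220 normalized counts per mouse, and the 10 skeletal muscle markers, a tissue rich in complex I, to between 66.5 and 141.6. Cd207, which encodes langerin, had 15.8, 18.5, 32.2, 10.0 and 43.0 normalized counts after PBS and 15.8 to 21.6 (median 18.3) after DT (log2 fold change -0.19 ± 0.30 (SE), limma adjusted p = 0.853), so the groups overlapped in this gene at the time of collection. By the study's flow cytometry, gingival LCs were absent in younger mice after DT and had returned to normal frequency at 8 weeks of age. The 6 LC markers summed to between 2080 and 4852 after PBS and between 1549 and 2970 after DT, with PBS 3 and PBS 5 highest. All 6 had a log2 fold change below 0 (median -0.36), and 0 were called. Only Cd74 had an unadjusted p under 0.05 (limma), where 6.19% of all genes were lower at that threshold. Over all mice the leukocyte markers summed to between 1022 and 3583 and the endothelial markers to between 45.3 and 119. Of the leukocyte markers 6 had a log2 fold change below 0 and 2 above, with Ptprc at -0.62 (limma adjusted p = 0.307) and S100a8 at 0.60 (0.660). The LC and leukocyte lists both hold Cd74 and Itgax, and the LC list shares Epcam with the epithelial list. The fibroblast markers summed to between 1109 and 1594, most of it Dcn, with means of 1174 after PBS and 1259 after DT. The log2 fold change was 0.09 for Dcn, but -0.53, -0.42 and -0.48 for Col1a1, Col1a2 and Col3a1 (limma adjusted p between 0.361 and 0.729). Of the 6 fibroblast markers 4 were below 0 and 2 above, and 0 were called. A log2 deviation was taken from the mean of each gene over the 11 mice. Over the 4 fibroblast markers whose mean reached 10, the mean log2 deviation was -0.09, 0.81, -0.34, 0.50 and 0.03 in PBS 1 to 5. In the DT mice it lay between -0.26 and -0.05. Between 17509328 and 24325513 reads per mouse were recovered from the deposited values. Whether these levels had a part in the results below was not tested.

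No Nduf gene passed the threshold of an adjusted p of 0.1 between DT and PBS, but most of the subunits had a slightly higher mean after DT. Of the 39 subunit names 0 were called in either direction, and of the 8 assembly factors 0, beside 0.558% of all 19170 genes tested, 0.313% higher and 0.245% lower (limma on log2 of the normalized count + 1). At an unadjusted p of 0.05 the count was 8 subunits higher after DT (Ndufb8, Ndufb9, Ndufv2, Ndufs4, Ndufa1, Ndufab1 and Ndufa2 among them), 0 lower and 0 assembly factors, where 5.31% of all genes were higher and 6.19% lower. The log2 fold change was above 0 in 36 of 39 subunit names and in 6 of 8 assembly factors, beside 47.3% of all genes tested and 50.7% of the 13477 whose mean reached 10. Its median was 0.10 over the subunit names, 0.12 over the assembly factors and -0.01 over all genes. The differences were small, from -0.02 (Ndufa4l2) to 0.22 (Ndufa2) among subunit names and from -0.15 (Ndufaf8) to 0.25 (Ndufaf5) among assembly factors. The groups overlapped in all 47 members, whereas they were apart in 2.11% of those 13477 genes, with DT higher in 1.23% and lower in 0.883%. In bulk epithelium, fewer cells of a type and less RNA per cell cannot be told apart.

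**Figure D1:**
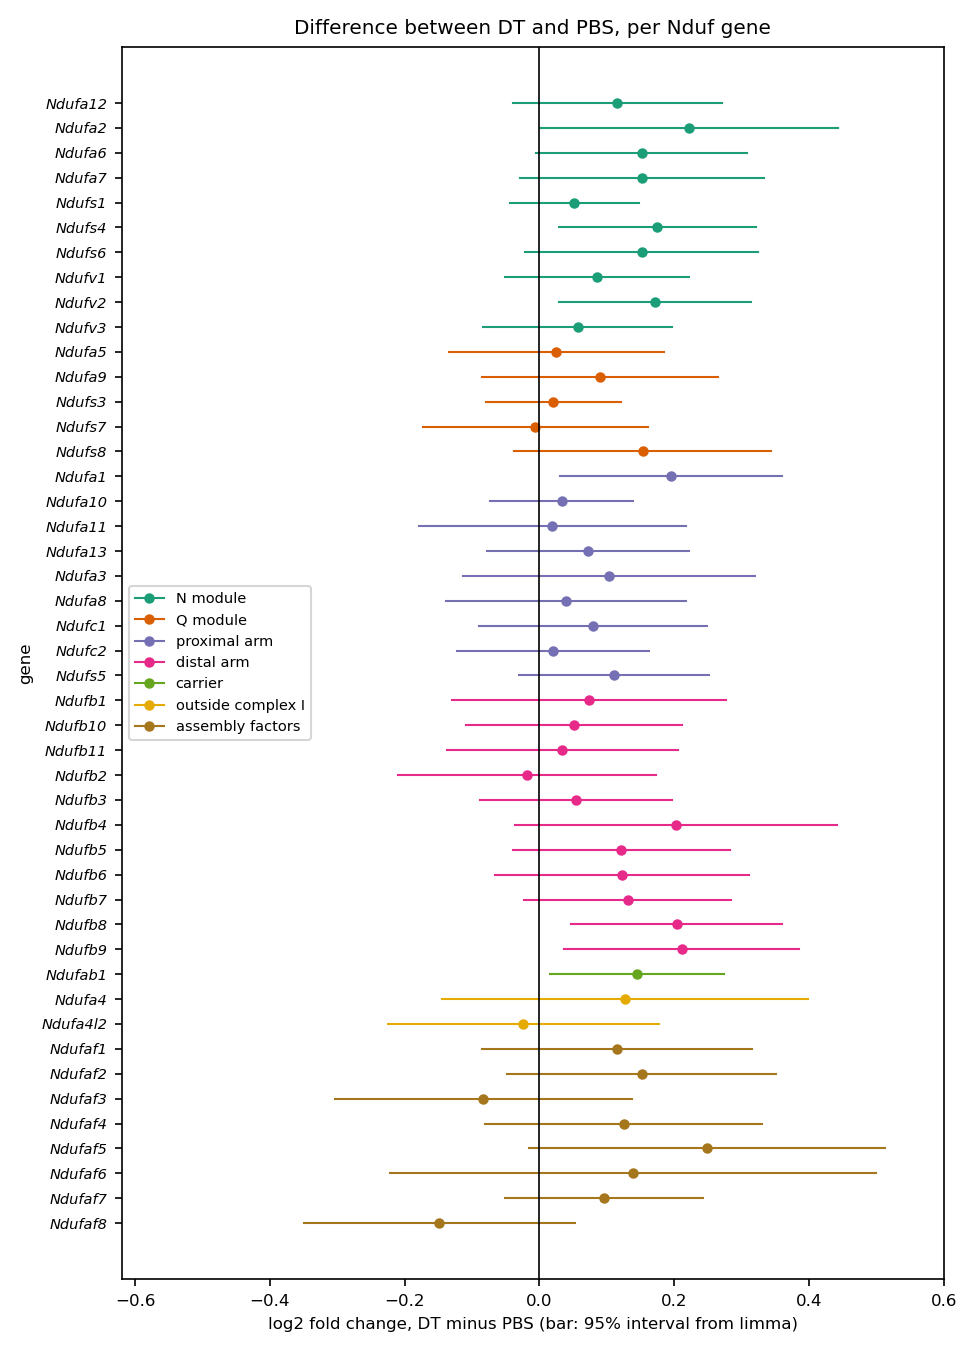
Log2 fold change of DT against PBS on the log2(normalized count + 1) scale for 46 of the 47 Nduf genes, grouped by their place in complex I, with the 95% interval from limma as a bar. The points of 35 of the 38 subunit names drawn lie to the right of 0, and the bars of 7 of them do not reach 0.

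The counts and medians moved when single mice were left out. With PBS 4 left out, the median over the subunit names was 0.04, 29 of 39 were above 0 and 1 had an unadjusted p under 0.05. With PBS 5 left out, the median was 0.15, 18 subunits had an unadjusted p under 0.05 and Ndufb8 passed the adjusted threshold (limma adjusted p = 0.0972). Without both mice, a choice made after seeing the data, the median was 0.09, with 34 of 39 above 0 and 7 at an unadjusted p under 0.05. The unadjusted count also moved to 5 without PBS 1, to 5 without DT 1, to 4 without DT 4 and to 4 without DT 5. It was 13 with array weights, 5 after quantile normalization and 1 with a block on the library number. By library number DT 5 has no PBS partner, so that fit does not draw its fold changes from DT 5.

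The N module, where NADH is oxidized, had the largest median log2 fold change of the 4 parts of the complex. All 10 of its members had a log2 fold change above 0, with a median of 0.15, and 3 had an unadjusted p under 0.05. Ndufv2, which carries an iron-sulfur cluster next to the NADH site, had 1193, 1257, 1191, 1068 and 1383 normalized counts in PBS 1 to 5 and 1287 to 1546 (median 1327) in the DT mice. PBS 5 lay among the DT mice and the other 4 PBS mice lay below all of them. The means were 1218 ± 115 in PBS mice (SD, n = 5) and 1370.2 ± 102 in DT mice (SD, n = 6) (log2 fold change 0.17 ± 0.067 (SE), limma adjusted p = 0.332). Its partner Ndufv1, which binds NADH and flavin, had 1550.2, 1565, 1778, 1405 and 1795 normalized counts after PBS and 1633 to 1857 (median 1680.4) after DT (log2 fold change 0.09 ± 0.064 (SE), limma adjusted p = 0.654). PBS 3 and PBS 5 lay within the DT range and the other 3 PBS mice below it. Ndufs1, the largest iron-sulfur subunit of the module, varied little, with 1577, 1563, 1658, 1602 and 1681 after PBS and 1614 to 1756 (median 1656) after DT (log2 fold change 0.05 ± 0.045 (SE), limma adjusted p = 0.708). Here too PBS 3 and PBS 5 lay within the DT range.

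Among the accessory subunits of the N module, Ndufa2 and Ndufs4 had the largest fold changes. Ndufs4, whose loss causes Leigh syndrome in people and a like disease in mice, had 627, 683, 688, 545 and 678 normalized counts after PBS and 645 to 753 (median 749.7) after DT. DT 3 fell within the PBS range, and the other 5 DT mice lay above all 5 PBS mice. Its means were 644 ± 60.8 in PBS mice (SD, n = 5) and 725 ± 43.7 in DT mice (SD, n = 6) (log2 fold change 0.17 ± 0.069 (SE), limma adjusted p = 0.334). Ndufa2, a small subunit with a thioredoxin-like fold, had 471, 449, 471, 339 and 606 normalized counts after PBS and 508 to 557 (median 542) after DT (log2 fold change 0.22 ± 0.10 (SE), limma adjusted p = 0.433). It had the highest fold change of the 39, and its PBS values alone spanned both the lowest (PBS 4) and the highest (PBS 5) of the 11 mice. The other accessory subunits had log2 fold changes of 0.15 (Ndufs6), 0.15 (Ndufa7), 0.15 (Ndufa6), 0.12 (Ndufa12) and 0.06 (Ndufv3), with adjusted p between 0.446 and 0.799.

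In the Q module, where ubiquinone is reduced, 5 of 6 members had a log2 fold change above 0, with a median of 0.06. Ndufs7, which holds the last iron-sulfur cluster before ubiquinone, had 566, 692, 711, 538 and 635 normalized counts after PBS and 548 to 674 (median 628) after DT (log2 fold change -0.01 ± 0.079 (SE), limma adjusted p = 0.987). The PBS mice spanned the whole DT range, the 95% interval of the fold change was -0.17 to 0.16, and the sign was positive in 6 of 22 other fits. Ndufs3, an early subunit of the module, had 1153, 1288, 1262, 1151 and 1222 normalized counts after PBS and 1195 to 1271 (median 1226) after DT (log2 fold change 0.02 ± 0.047 (SE), limma adjusted p = 0.909), with an interval of -0.08 to 0.12. Its PBS range also enclosed its DT range. Of all members Ndufs3 varied least between the highest and the lowest mouse, and its sign was negative in 2 of 22 other fits.

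Ndufs8, which carries iron-sulfur clusters on the path to ubiquinone, had 653, 676, 766, 523 and 795 normalized counts after PBS and 692 to 816 (median 747) after DT (log2 fold change 0.15 ± 0.090 (SE), limma adjusted p = 0.537). PBS 4 was again the lowest mouse, and PBS 3 and PBS 5 lay within the DT range. The accessory subunits Ndufa9 and Ndufa5 had log2 fold changes of 0.09 and 0.03.

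In the membrane arm the nucleus encodes accessory subunits alone. All 9 of the proximal part had a log2 fold change above 0, with a median of 0.07. Ndufa1, a small X-linked membrane subunit that is needed early in assembly, had 479.8, 568.5, 558, 421 and 508 normalized counts after PBS and 535 to 639 (median 579) after DT. PBS 2 and PBS 3 lay within the DT range and the other 3 PBS mice below it. Its means were 507 ± 60.4 in PBS mice (SD, n = 5) and 578 ± 38.2 in DT mice (SD, n = 6) (log2 fold change 0.20 ± 0.078 (SE), limma adjusted p = 0.342). The other 8 ranged from 0.02 (Ndufa11) to 0.11 (Ndufs5), with adjusted p between 0.550 and 0.963.

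The distal part had 10 of 11 members above 0 and a median log2 fold change of 0.12. Ndufb8, one of the subunits with the word AAGATGGC at its start codon, had the smallest p of all members (unadjusted p = 0.0141 by limma). The other subunits with the word had log2 fold changes of 0.17 (Ndufs4), 0.15 (Ndufs6), 0.10 (Ndufa3), 0.09 (Ndufa9), 0.08 (Ndufc1) and -0.01 (Ndufs7). Whether the word goes with the difference was not tested. Ndufb8 had 694, 835, 785, 685 and 914 normalized counts after PBS and 824 to 939 (median 918) after DT. PBS 5 reached the DT range, PBS 2 its lower end, and the other 3 PBS mice were lower. The means were 782 ± 96.7 in PBS mice (SD, n = 5) and 897 ± 49.3 in DT mice (SD, n = 6) (log2 fold change 0.20 ± 0.074 (SE), limma adjusted p = 0.291, interval 0.05 to 0.36).

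Ndufb9, which binds a molecule of the acyl carrier Ndufab1, had 525, 574, 546, 413 and 602 normalized counts after PBS and 592 to 671 (median 602) after DT. PBS 5 was among the DT mice, the other PBS mice were below, and DT 4 stood above the other 5 DT mice (log2 fold change 0.21 ± 0.082 (SE), limma adjusted p = 0.327). Ndufb4, another accessory subunit, had 373, 458, 388, 381 and 594 after PBS and 461 to 617 (median 474) after DT (log2 fold change 0.20 ± 0.11 (SE), limma adjusted p = 0.512), with PBS 5 and DT 4 far above the rest. Ndufb2, the only member of this part below 0, had 233, 268, 190.1, 223 and 223 after PBS and 192 to 239 (median 229) after DT (log2 fold change -0.02 ± 0.090 (SE), limma adjusted p = 0.963). Its interval was -0.21 to 0.17, and its sign was positive in 4 of 22 other fits. The other 7 ranged from 0.03 (Ndufb11) to 0.13 (Ndufb7).

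Ndufab1 is the mitochondrial acyl carrier protein, which sits in complex I and also serves mitochondrial fatty acid synthesis. It had 724, 772, 733, 626 and 733 normalized counts after PBS and 737 to 833 (median 795) after DT. PBS 4 was lowest, 3 DT mice lay above all PBS mice, and the other 3 lay within the PBS range. The means were 718 ± 54.6 in PBS mice (SD, n = 5) and 792 ± 41.9 in DT mice (SD, n = 6) (log2 fold change 0.14 ± 0.061 (SE), limma adjusted p = 0.371).

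A pair of Nduf names belongs to products that are not subunits of complex I. Ndufa4 is now counted as a subunit of complex IV, and it had 1864, 1974, 2138, 1509.9 and 2864 normalized counts after PBS and 1865 to 2780.4 (median 2175) after DT (log2 fold change 0.13 ± 0.13 (SE), limma adjusted p = 0.76). The lowest and the highest mouse, PBS 4 and PBS 5, were both PBS mice and differed by a ratio of 1.90. Ndufa4l2, its paralogue and a target of hypoxia-inducible factor, had 3374, 3615, 4437, 3317 and 3990.2 after PBS and 2790.1 to 4079.7 (median 3809.9) after DT (log2 fold change -0.02 ± 0.095 (SE), limma adjusted p = 0.953, interval -0.22 to 0.18). DT 4 was lowest and PBS 3 highest, and the sign of its fold change was positive in 4 of 22 other fits.

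The 8 Ndufaf assembly factors are not part of the finished complex. Ndufaf5, which hydroxylates an arginine of Ndufs7, had 78.1, 78.7, 55.3, 86.5 and 80.8 normalized counts after PBS and 82.8 to 102 (median 87.2) after DT (log2 fold change 0.25 ± 0.12 (SE), limma adjusted p = 0.458). PBS 3 lay far below the other 10 mice, and PBS 4 lay within the DT range. Ndufaf8, which stabilizes Ndufaf5, had a negative fold change, with 131, 134, 162, 149 and 167 after PBS and 118 to 144 (median 137) after DT (log2 fold change -0.15 ± 0.095 (SE), limma adjusted p = 0.581, interval -0.35 to 0.05). PBS 3, PBS 4 and PBS 5 were above all DT mice.

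Ndufaf2, which holds a late intermediate before the N module is complete, had 109, 116, 129, 130.2 and 113 normalized counts after PBS and 119 to 149 (median 136) after DT (log2 fold change 0.15 ± 0.094 (SE), limma adjusted p = 0.569). Ndufaf3, which builds the Q module together with Ndufaf4, had 130.1, 159, 184, 157 and 141 after PBS and 126 to 157 (median 149) after DT (log2 fold change -0.08 ± 0.10 (SE), limma adjusted p = 0.811), whereas Ndufaf4 had a log2 fold change of 0.13. Both genes had overlapping groups. Ndufaf1, which belongs to the assembly complex of the membrane arm, Ndufaf6, an early factor, and Ndufaf7, a methyltransferase, had log2 fold changes of 0.11, 0.14 and 0.10, with adjusted p between 0.634 and 0.808.

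**Figure D2:**
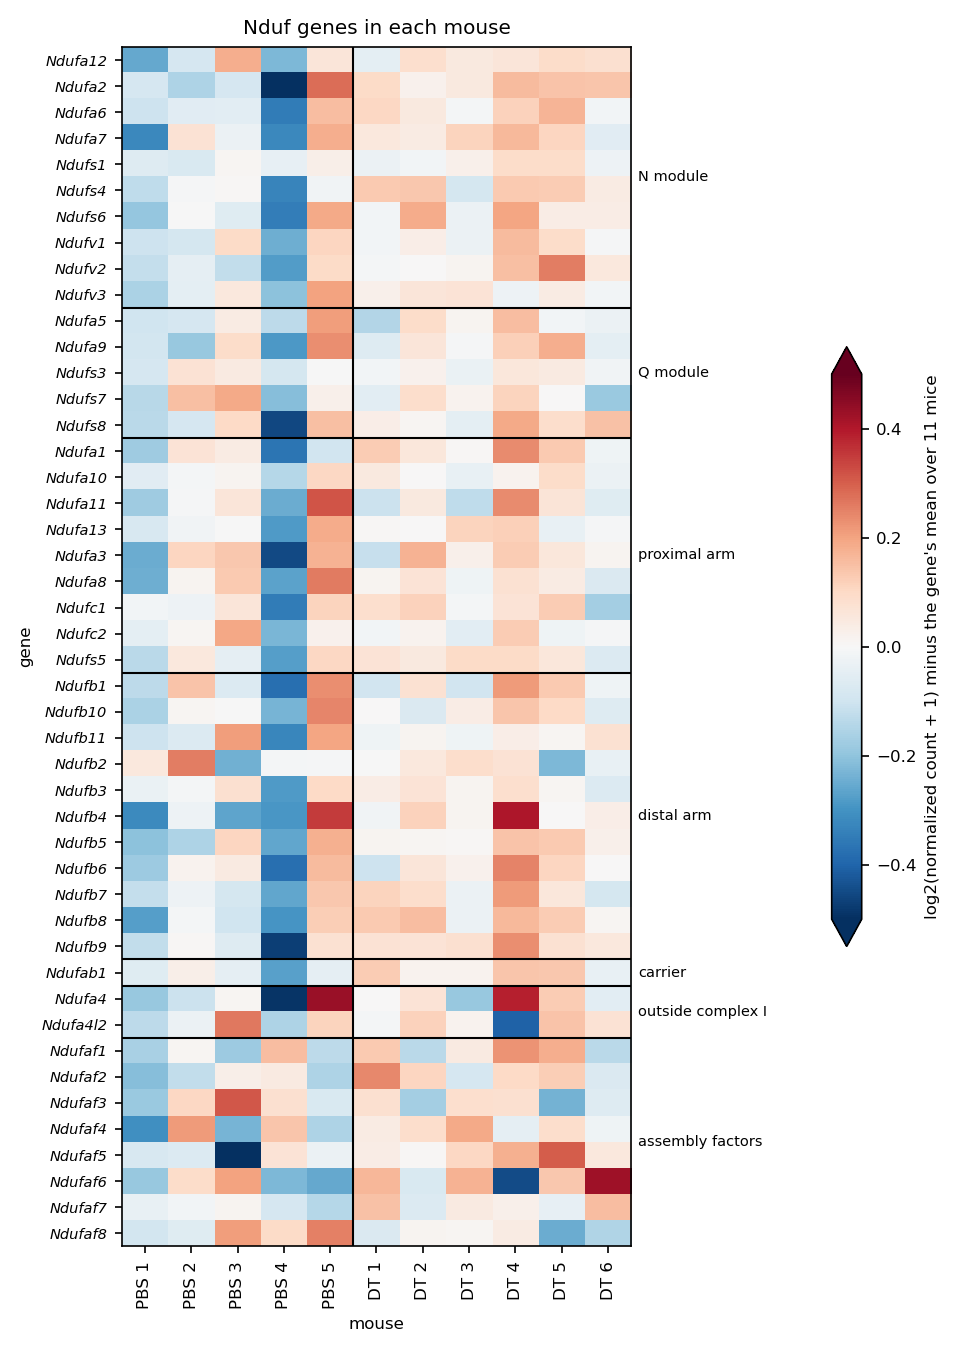
Deviation of log2(normalized count + 1) from the mean of the gene over the 11 mice, for 46 of the 47 Nduf genes (rows, grouped by place in the complex) and each mouse (columns). The column of PBS 4 is at or below 0 for all 38 subunit names drawn but not for the assembly factors, of which 6 of 8 are above their mean, and PBS 5 is above 0 for 33 of the 38.

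The subunit names tended to be high or low in the same mice. In PBS 4 the number of subunit names above their own mean over the 11 mice was 0 of 39, in PBS 1 it was 1, in PBS 2 14, in PBS 3 24 and in PBS 5 34. In the DT mice it was 21, 37, 22, 37, 35 and 15 in order of their number. The mean deviation over the 39 was -0.14, -0.01, 0.02, -0.28 and 0.14 in PBS 1 to 5, and it lay between -0.01 and 0.13 in the DT mice. Over the 39 names every DT mouse fell between PBS 4 and PBS 5. Over the 37 without Ndufa4 and Ndufa4l2, PBS 4 was again lowest (-0.28), but DT 4 (0.139) lay slightly above PBS 5 (0.131).

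PBS 4 had the lowest value of the 11 mice in 33 of 39 subunit names and in 0 of 8 assembly factors, beside 17.3% of the 13477 genes whose mean reached 10. PBS 5 had the highest value in 16 of 39, beside 14.5% of these genes, and DT 4 in 11. Both PBS mice were singled out after their values were seen. PBS 4 had 22180195 recovered reads and PBS 5 19460798, both inside the range of the other mice. The LC markers summed to 2080 in PBS 4 and 3909 in PBS 5, and the leukocyte markers to 1291 and 3225. Both lists hold Cd74, which alone had 830 in PBS 4 and 1674 in PBS 5. The mean log2 deviation over the 4 fibroblast markers whose mean reached 10 was 0.50 in PBS 4 and 0.03 in PBS 5. The 10 skeletal muscle markers, of which 3 had a mean of at least 10, had their lowest sum in PBS 4 (66.5) and their highest in PBS 5 (141.6), followed by DT 4 (129.9), with 66.5 to 141.6 in PBS mice and 75.5 to 129.9 in DT mice. The 39 subunit names summed to 31376 in PBS 4 and 41575 in PBS 5. The part of LCs, other leukocytes, fibroblasts and muscle in the pattern was not tested.

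Over the assembly factors the mice had another order. Their mean deviation was -0.16, 0.02, -0.03, 0.03 and -0.09 in PBS 1 to 5 and lay between -0.03 and 0.10 in the DT mice. PBS 4 was the highest of the PBS mice here and the lowest for the subunits, and PBS 5 was among the lowest here and the highest for the 39 subunit names.

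**Figure D3:**
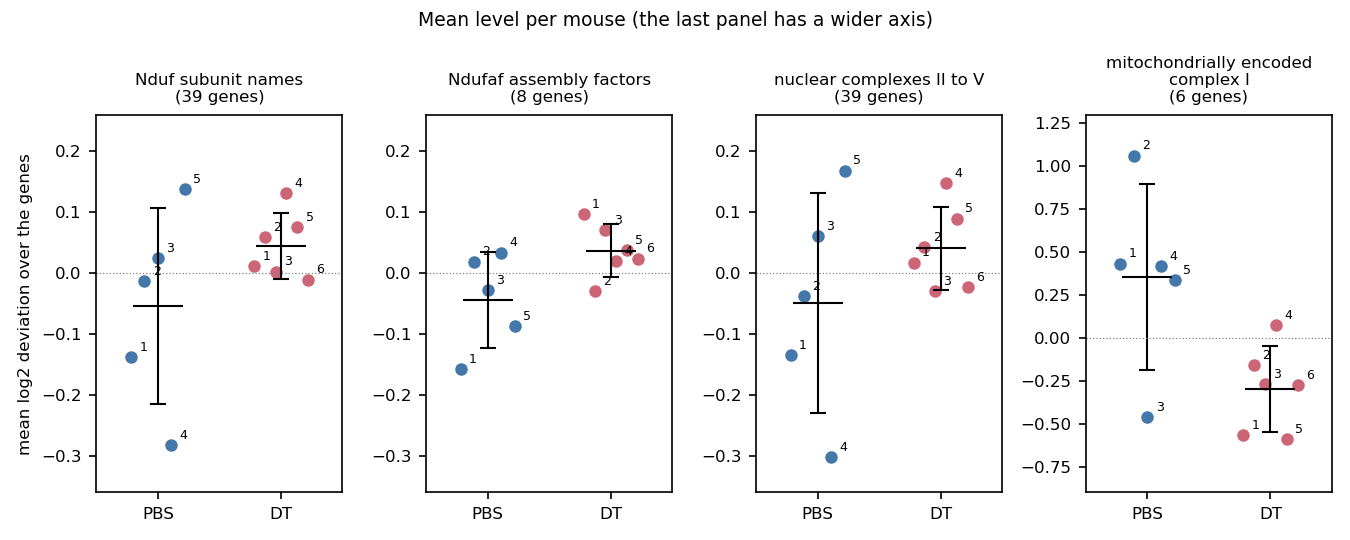
Mean deviation of log2(normalized count + 1) from the gene means in each mouse, over 39 Nduf subunit names, 8 Ndufaf assembly factors, 39 nuclear genes of complexes II to V and 6 mitochondrially encoded genes of complex I. Points are mice with their number, and the bars give the mean and SD of 5 PBS and 6 DT mice. The panels of the Nduf subunit names and of complexes II to V both show a low PBS 4 and a high PBS 5, while in the last panel PBS 3 is the only PBS mouse among the DT mice.

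The PBS mice were more spread out than the DT mice for the subunits. The SD of the log2 values was larger in PBS in 37 of 39 subunit names and in 4 of 8 assembly factors, beside 69.3% of the same 13477 genes. It was also larger in PBS in 39 of 39 nuclear genes of complexes II to V, with median SDs of 0.19 in PBS and 0.08 in DT. The median SD over the subunit names was 0.18 in PBS and 0.08 in DT, over the assembly factors 0.17 and 0.12, and over those 13477 genes 0.17 and 0.12. Within the subunits the exceptions were Ndufs1, with the smaller SD in PBS, and Ndufa4l2, whose DT values hold the low DT 4. The difference in spread was not tested.

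**Figure D4:**
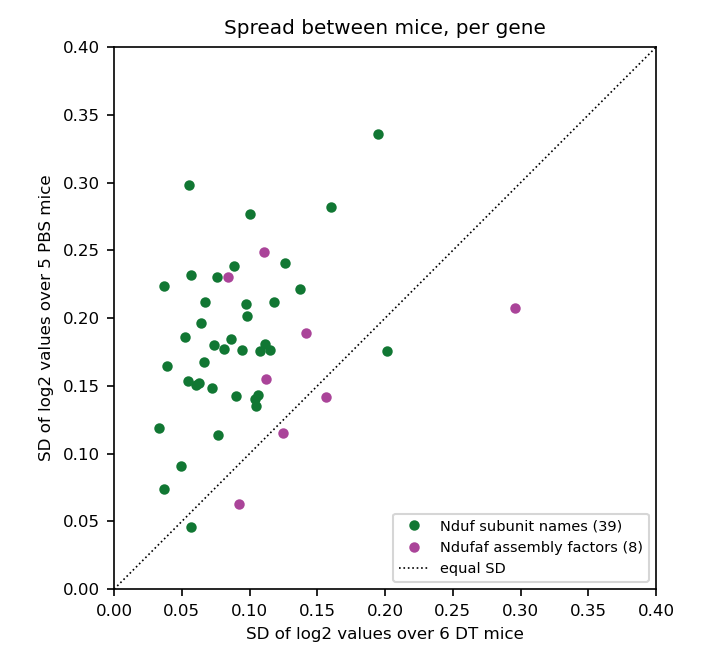
SD of log2(normalized count + 1) over 5 PBS mice against that over 6 DT mice, with a point per gene for 39 Nduf subunit names and 8 Ndufaf assembly factors. Of the subunit names 37 lie above the line of equal SD, and of the assembly factors 4.

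Levels between genes were compared per kilobase of annotated exon, where the members spanned a wide range. Ndufa4l2 was highest with 3394 normalized counts per kilobase, followed by Ndufa4 with 1561 and, among the subunits of complex I, Ndufa1 with 1303. The lowest of the complex I subunits was Ndufb2 with 40.1, which is also the subunit with the fewest normalized counts, and the next lowest was Ndufab1 with 110.2. The assembly factors lay between 35.1 (Ndufaf6) and 169 (Ndufaf8) and took ranks 37 to 47 of 47 apart from the places of Ndufb7, Ndufab1 and Ndufb2. The length is the union of all annotated exons of a gene, so a gene with a long rare transcript comes out low. Counts scale with this length only if reads cover whole transcripts, and the sources leave the library kit unclear. The core subunits of the N module lay at 634 (Ndufv1), 606 (Ndufv2) and 204 (Ndufs1), and Q module subunits of the core at 562 (Ndufs3), 558 (Ndufs8) and 364 (Ndufs7).

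**Figure D5:**
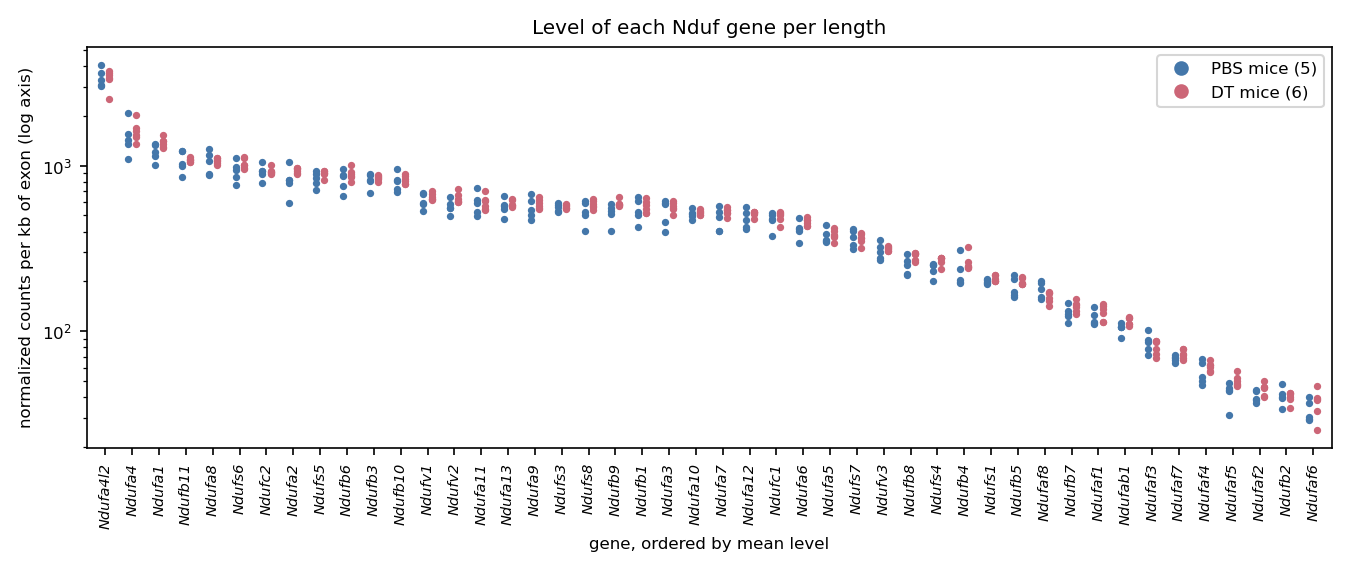
Normalized counts per kilobase of annotated exon (log axis) for 46 of the 47 Nduf genes in order of their mean, with a point for each of 5 PBS and 6 DT mice. The points of PBS and DT mice overlap in every gene, and the order runs from 3394 for Ndufa4l2 to 35.1 for Ndufaf6.

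Among 11 complex I assembly factors without an Nduf name, 1 was called, beside 0.558% of all genes tested. The median log2 fold change was 0.07 with 7 of 11 above 0, beside 47.3% of all genes. Tmem70, which is known mainly for the assembly of ATP synthase and also acts on complex I, was higher after DT, with 435, 487, 469, 429.8 and 471 normalized counts after PBS and 522 to 599 (median 549.9) after DT. The groups did not overlap, as in 1.23% of genes in this direction. Its means were 458 ± 24.8 in PBS mice (SD, n = 5) and 554 ± 27.4 in DT mice (SD, n = 6) (log2 fold change 0.27 ± 0.058 (SE), limma adjusted p = 0.077). The call was lost without PBS 1, PBS 2, DT 2, DT 3, DT 4, DT 5 or DT 6 (limma adjusted p between 0.107 and 0.204). Acad9 and Timmdc1, which work with Ndufaf1 on the membrane arm, had log2 fold changes of 0.13 and 0.14 (limma adjusted p = 0.256 and 0.467).

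The partners encoded in mitochondrial DNA had the opposite sign to the nuclear subunits. All 6 measured genes had a log2 fold change below 0, with a median of -0.64, but none was called. All 6 had an unadjusted p under 0.05 (limma), where 6.19% of all genes were lower at that threshold. mt-Nd4, a core subunit of the distal arm, had 48214, 70702, 27079, 50776 and 54561 normalized counts after PBS and 21496 to 34804 (median 30023) after DT (log2 fold change -0.78 ± 0.19 (SE), limma adjusted p = 0.126). PBS 3 lay among the DT mice and the other 4 PBS mice lay above all of them. mt-Nd6 and mt-Nd1, of the proximal arm, had log2 fold changes of -0.74 and -0.65 (limma adjusted p = 0.196 and 0.196). Without PBS 3 the adjusted p of mt-Nd4, mt-Nd6 and mt-Nd1 was 0.0145, 0.0122 and 0.0321, and with array weights it was 0.0445, 0.0633 and 0.0795 (limma). Other fits weakened them. Without PBS 2 the adjusted p was 0.266, 0.341 and 0.341, with log2 fold changes of -0.64, -0.60 and -0.50 (limma). With a block on the library number it was 0.368, 0.414 and 0.532 (limma). Nuclear copies of mitochondrial DNA exist, and how shared reads were counted is not given in the sources used here.

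By mean deviation, the nuclear genes of complexes II to V had PBS 4 as the lowest mouse, as the complex I subunits did, and PBS 5 as the highest. All 39 had a log2 fold change above 0, with a median of 0.07, and 0 were called. At an unadjusted p under 0.05 (limma) 2 were higher, where 5.31% of all genes were. PBS 4 was lowest in 38 of 39, but PBS 5 was highest in only 14 of 39. Their mean deviation was -0.13, -0.04, 0.06, -0.30 and 0.17 in PBS 1 to 5. The medians were 0.06 for complex II, 0.12 for complex III, 0.04 for complex IV and 0.09 for complex V, so complex I with 0.10 lay within their range.

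Of 9 regulators of mitochondrial biogenesis 0 were called, and 7 had a log2 fold change above 0. Ppargc1a, a coactivator of mitochondrial genes, had 58.8, 43.7, 70.4, 54.6 and 48.3 normalized counts after PBS and 33.3 to 52.4 (median 37.3) after DT (log2 fold change -0.48 ± 0.16 (SE), limma adjusted p = 0.264), with overlapping groups. Gabpb1, which pairs with the DNA-binding Gabpa, had 370.0, 419, 412, 436 and 399.8 after PBS and 437 to 474 (median 443) after DT (log2 fold change 0.14 ± 0.058 (SE), limma adjusted p = 0.373). All 6 DT mice lay above all 5 PBS mice, though DT 1 with 437 was next to PBS 4 with 436. Gabpa itself had a log2 fold change of 0.15 (limma adjusted p = 0.498).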

How the data were processed

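RNA of gingival epithelium from langerin-DTR mice given PBS (5) or DT (6) was sequenced. The study's reporting summary names a stranded kit with mRNA capture beads, whereas its methods process the reads by the QuantSeq guide. Which kit made these libraries is not clear from these sources. The authors trimmed and aligned the reads, counted them per gene with htseq-count and divided them by DESeq2 size factors, so each deposited value is a normalized count per gene and mouse. The submitters' processing notes name cutadapt 2.10, TopHat2 2.1.1, HTSeq 2.01, DESeq2 1.36.0 and GRCm39, whereas the methods of the study name GRCm38. Of 55414 genes listed, 19170 have values. No column of values was left out.

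DT was compared with PBS with limma 3.58.1 (R 4.3.3) in a fit of all 11 mice without covariates and with an intensity trend, two-sided, on log2(normalized count + 1), which understates the change of low genes. P-values were adjusted by Benjamini-Hochberg over 19170 genes with a threshold of 0.1. The procedure was tested on simulated data. Within each mouse 100% of values were whole multiples of a read (tolerance 0.05 read), which gives the depth; the count-based tests were not run.

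The members and the gene lists were chosen with earlier results of these data known, and Ndufb1 was added to the distal arm later. Named genes were the 7 core subunits, the 5 largest and 3 lowest fold changes among subunits, the 2 highest and 2 lowest assembly factors, the 5 smallest p, the highest and lowest level per length, Ndufa4, Ndufa4l2 and Ndufab1, and up to 3 genes with the smallest p of each other list. Cd207 and the markers were named besides, and 1 gene that the rule names is not reported here, though it stays in all counts and medians. Exon lengths and GC content came from GENCODE M21 (GRCm38), which held 99.7% of the 19170 genes. Promoters came from RefSeq on GRCm38.p6. Alternatives were other pseudocounts, a low-value filter, other scalings, array weights, length and GC correction (loess, span 0.3), replicate blocks and leaving out each mouse.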

Additional observations from a re-analysis of the deposited data

Results flagged for a closer look

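Of 64 groups of mice examined (30 named genes and 2 mean deviations, each in PBS and DT), 7 held a mouse that stood apart from the rest of its group by Dixon's test, which chance alone does in about 1 of 20 groups. DT 4 stood apart in 3 members, with 2790 normalized counts of Ndufa4l2 where the other DT mice had 3662 to 4080, 617 of Ndufb4 where they had 461 to 504, and 671 of Ndufb9 where they had 592 to 604. PBS 3 had 55.3 normalized counts of Ndufaf5, and the other PBS mice had 78.1 to 86.5. Outside the Nduf genes, PBS 2 had 3151 of Acad9 (others 2846 to 2927), DT 6 had 474 of Gabpb1 (others 437 to 447) and DT 3 had 52.4 of Ppargc1a (others 33.3 to 40.1).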

How the results depend on the processing

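The count of Ndufaf assembly factors called stayed at 0 under all 22 alternatives run, and that of subunits at 0 under all but one, since Ndufb8 was called without PBS 5, which gives a range of 0 to 1 over the fits without 1 mouse. The number of all genes called was 107 and moved to 189 with array weights, 193 with the length and GC correction, 28 with that correction and the replicate block, and 27 (without DT 5) to 259 (without PBS 5) when a mouse was left out, with 29 without PBS 1, 40 without PBS 2, 170 without PBS 4, 61 without DT 1, 52 without DT 3, 50 without DT 4 and 30 without DT 6. The length and GC correction raised the calls higher after DT from 60 of 107 to 147 of 193. A replicate block on the number in the sample titles gave 35 calls and one on the library number gave 0 (1404 genes at an unadjusted p under 0.05 by limma), but not every same-numbered pair deviated together (correlations 0.09, 0.17, -0.23, -0.21 and 0.32 by title number, where by library number the last is that of PBS 5 with DT 6, -0.05), so neither numbering was taken to pair the mice. DT 6 has no PBS partner by title number and DT 5 none by library number. The fold changes of each block therefore equal those of the fit without that mouse. The median log2 fold change of the subunit names stayed between 0.04 and 0.15 and that of the assembly factors between 0.10 and 0.14. The sign of the fold change differed in at least 1 alternative for 11 of the 47 members, of which 4 are among the named genes and the others are Ndufa11, Ndufa5, Ndufa8, Ndufb1, Ndufb11, Ndufb3 and Ndufc2. Ndufs3 was at -0.0029 after quantile normalization and -0.0016 without PBS 4 and PBS 5, Ndufa4l2 at 0.026 with array weights, Ndufs7 at 0.030 with the block by title number with or without the length and GC correction, and Ndufb2 at 0.025 with the block by library number and 0.0093 with the length and GC correction and the block by title number. Over the fits without 1 mouse Ndufa4l2 ranged from -0.065 to 0.055, Ndufs7 from -0.060 to 0.041 and Ndufb2 from -0.081 to 0.043. Tmem70 was not called with a replicate block (adjusted p = 0.28 and 0.50 by limma), nor without PBS 4 and PBS 5 (0.14). mt-Nd4, mt-Nd6 and mt-Nd1 were called with array weights (limma adjusted p = 0.0445, 0.0633 and 0.0795) and without PBS 3, and mt-Nd4 also after quantile normalization and the length and GC correction (0.0965 and 0.0767). These mitochondrial genes were not called with either replicate block, nor without PBS 1 or PBS 2, where their adjusted p was higher than in the main fit. The causes were not tested. Tests by edgeR and DESeq2 on recovered reads had been planned and were not run, although whole reads could be recovered, because the table, in which many genes have no value, was handled as normalized values throughout.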
